A study of Bos taurus with 6 samples.

Results

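The 6 actin genes of cattle were examined in longissimus thoracis (LT) muscle of Korean cattle, and all 6 were found among the 23015 rows of each count file and passed the filter on low counts, as 6 of the 15039 rows tested. The members were the striated muscle actins ACTA1 and ACTC1, the smooth muscle actins ACTA2 and ACTG2, and the cytoskeletal actins ACTB and ACTG1. The libraries came from 6 Hanwoo (Korean native cattle) steers fed commercial feeds, 1 library per steer, with counts between 16283873 and 17192750. The high-NFMP group, with many fine marbling particles in the rib eye image, held steers 3-8, 10-8 and 10-9, aged 32.5, 33.8 and 34.5 months. The low-NFMP group held steers 3-1, 3-3 and 10-16, aged 37.8, 33.7 and 35.4 months. Steers were placed in the groups by the number of fine particles, so that any other trait that goes with this number cannot be told apart from it.

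Actin is the protein of the thin filaments of muscle and of the microfilaments of other cells, and vertebrates make it from a small family of genes with nearly the same coding sequence. ACTA1 is the main actin of adult skeletal muscle fibers. ACTC1 is the actin of heart muscle and is also made in skeletal muscle before birth, and ACTA2 and ACTG2 belong to the smooth muscle of vessels and of hollow organs. ACTB and ACTG1 are made in almost every cell type, and ACTB is often used as a reference in qPCR, as it was in this study. The counts were compared here within libraries between the classes, and then between the groups, to ask how steady ACTB was.

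Reverse transcription was primed with oligo-dT, and the lengths of the actin transcripts were not used here. The very long transcript of titin (TTN) took from 4.55% to 6.6% of each library. The relation of transcript length to counts was not tested, so different genes are set side by side as reads, and not as molecules. Reads of both unique and multiple alignments entered the comparison that the study describes, so the near-identical actin genes could share reads. By RefSeq annotation of the ARS-UCD2.0 assembly, ACTA1, ACTC1, ACTA2 and ACTB overlapped no other gene, ACTG1 held the microRNA gene MIR3533, and ACTG2 overlapped a pseudogene and a long noncoding RNA gene. None of these 3 neighbors had a row in the counts.

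Striated actin made up nearly all actin reads in every library. Together the 6 genes took 1.64%, 2.79% and 2.27% of the counts of steers 3-8, 10-8 and 10-9, and 1.56%, 2.02% and 2.26% of those of steers 3-1, 3-3 and 10-16. The striated class held between 97.0% (Wilson 95% interval 96.99% to 97.12%, steer 3-8) and 98.2% (98.2% to 98.28%, steer 10-8) of them. The cytoskeletal class followed, with 2.16% ± 0.553 (SD, n = 3) for high NFMP and 1.98% ± 0.372 (SD, n = 3) for low NFMP. The smooth muscle class was the smallest, at 0.267% ± 0.0842 (SD, n = 3) and 0.252% ± 0.0753 (SD, n = 3). These intervals cover counting error only, and they were far narrower than the spread between steers. In an exact two-sided permutation test over the 6 steers, which cannot give a p below 0.1, the p was 0.8 for the striated share, 0.9 for the smooth share and 0.8 for the cytoskeletal share. The order of the 3 classes was the same in all 6 libraries, whereas the shares of the groups overlapped for each class. Brought to a common library size, the cytoskeletal class summed to 7233, 8103 and 8492 counts in steers 3-8, 10-8 and 10-9. In steers 3-1, 3-3 and 10-16 it summed to 6026, 6221 and 6292. These sums, mostly ACTB, did not overlap between the groups, as in 17.1% of all tested rows. The sums of the striated and of the smooth class did overlap.

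**Figure D1:**
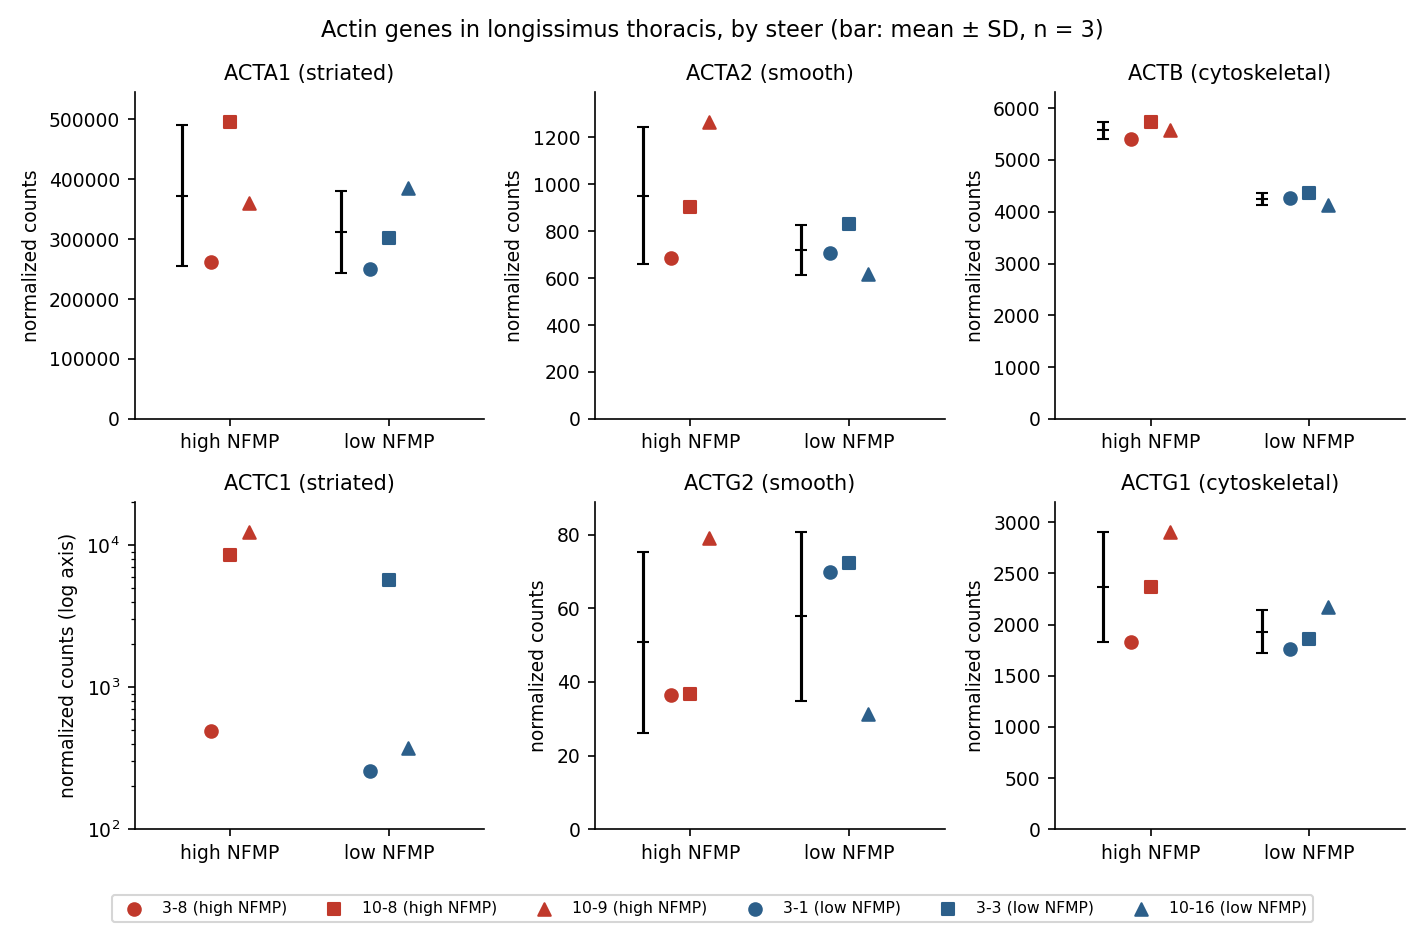
Normalized counts (counts brought to a common TMM library size) of each actin gene on the vertical axis, by NFMP group, with 1 point per steer and a bar for the mean ± SD of the 3 steers of a group (no bar for ACTC1, which has a log axis). The 3 high-NFMP steers lie at 5404 or above for ACTB and the 3 low-NFMP steers at 4363 or below, while ACTC1 runs from 258.4 to 12344 and is high in steers of both groups.

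ACTA1, the main thin filament actin, was the most counted of the 6 genes. It had 261481, 495948 and 360943 normalized counts in steers 3-8, 10-8 and 10-9, and 249724, 301175 and 385164 in steers 3-1, 3-3 and 10-16. Normalized counts are counts brought to a common library size with TMM factors. Steer 10-8 was the highest and steers 3-1 and 3-8, 1 of each group, were the lowest, so the groups overlapped. The log2 fold change of high against low NFMP was 0.26 (standard error 0.27, 95% interval -0.32 to 0.83), with adjusted p = 0.75 in the edgeR quasi-likelihood fit, where Benjamini-Hochberg adjustment ran over all tested rows. The interval leaves room for changes between 0.803-fold and 1.78-fold. After quantile normalization with limma the log2 fold change was -0.03. None of the 6 actins passed the threshold of the study, a fold change above 2 at an unadjusted p below 0.05, which 3.9% of all tested rows passed, 2.53% as higher and 1.36% as lower with high NFMP. Adjusted p was below 0.05 for none of them by edgeR, against 0.685% of all tested rows.

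ACTC1, the heart actin, varied more than any other member, and both NFMP groups held steers with many and with few reads of it. It had 486, 7630 and 12308 reads in steers 3-8, 10-8 and 10-9 (high NFMP), and 270, 6158 and 367 reads in steers 3-1, 3-3 and 10-16 (low NFMP). Steers 10-8, 10-9 and 3-3 had at least 6158 reads, the other 3 steers had at most 486, and no library lay between. In normalized counts the highest library was 47.8-fold above the lowest. The SD of log2 normalized counts over the 6 libraries was 2.53, the second largest among the 8729 tested rows with a mean of at least 100 normalized counts, where the median SD was 0.28. The log2 fold change of high against low NFMP was 1.75, but its standard error was 1.81 and its 95% interval ran from -3.15 to 6.65 (adjusted p = 0.768 by edgeR). Without steer 3-3 it was 4.49 (adjusted p = 0.554 by edgeR), without steer 10-9 it was 1.12 (adjusted p = 0.92), and in a fit that also held the leading number of each label (3 or 10) it was 1.098 (adjusted p = 0.966).

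The ratio of ACTC1 to ACTA1 within a library is given because these close copies can share reads. Per 100 reads of ACTA1 there were 0.188, 1.71 and 3.42 reads of ACTC1 in steers 3-8, 10-8 and 10-9, and 0.103, 1.89 and 0.0962 in steers 3-1, 3-3 and 10-16. The ratio thus ranged 35.6-fold, while ACTA1 itself ranged 1.99-fold. The part of shared reads in these counts was not tested. As a share of all actin reads, ACTC1 reached 3.22% (Wilson 95% interval 3.17% to 3.28%) in steer 10-9 and 0.0944% (0.0852% to 0.105%) in steer 10-16.

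Genes of developing muscle did not show the range of ACTC1. MYH3, the embryonic myosin heavy chain, had 1281, 1909 and 1303 normalized counts in steers 3-8, 10-8 and 10-9, and 1428, 1789 and 859.1 in steers 3-1, 3-3 and 10-16. MYH8, the perinatal myosin heavy chain, lay between 528.5 and 662.3 in all 6 libraries. MYH7, the slow myosin heavy chain shared with heart, had 30653, 65355 and 56592 in the high-NFMP steers and 34478, 38331 and 49409 in the low-NFMP steers. It was highest in steers 10-8 and 10-9, where ACTC1 was also high, yet it was higher in steer 10-16 than in steer 3-3, the reverse of ACTC1. Of the 8 tested genes of the developing muscle list, 3 passed the threshold of the study, and all 3 were lower in the high-NFMP group, where 1.36% of all tested rows were. These were MYOG, a myogenic transcription factor, MYMK, a membrane protein of myoblast fusion, and CHRNA1, a subunit of the acetylcholine receptor. Over all tested rows, those past the threshold without steer 3-8 were 366 higher and 378 lower, against 381 and 205 with all steers. CHRNA1 had 482.4, 813.5 and 730.1 normalized counts against 1645, 2153 and 1183, a log2 fold change of -1.30 (adjusted p = 0.0301 by edgeR). MYOG was at -1.13 (adjusted p = 0.186 by edgeR) and MYMK, with at most 34 counts, at -1.41 (adjusted p = 0.349). MYOG had 623.2, 514.5 and 606.8 normalized counts in the high-NFMP steers. In steers 3-1, 3-3 and 10-16 it had 1607, 1599 and 609.8, so steer 10-16 lay within the high-NFMP range. MYF6, the most counted of the list, was at -0.24. The adjusted p of CHRNA1 was above 0.05 in 5 of the fits that leave out 1 steer, and at 0.0286 without steer 10-16. It was also above 0.05 with the label number as a term (0.123), with age as a term (0.153) and after quantile normalization with limma (0.0714).

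Smooth muscle actin was rare in these libraries, and ACTA2 was more counted than ACTG2. ACTA2, the actin of vascular smooth muscle, had 687.1, 902.4 and 1267 normalized counts in steers 3-8, 10-8 and 10-9, and 709.1, 831.0 and 618.9 in steers 3-1, 3-3 and 10-16. Steer 10-9 stood highest and steer 3-8 lay within the range of the low-NFMP steers. The log2 fold change was 0.40 (standard error 0.23, 95% interval -0.08 to 0.88, adjusted p = 0.527 by edgeR), and without steer 10-9 it was 0.16. Without steer 3-8 it was 0.59, with an unadjusted p of 0.0165 and an adjusted p of 0.239 by edgeR. ACTG2, the actin of visceral smooth muscle, had only 36, 33 and 79 reads with high NFMP and 73, 78 and 31 reads with low NFMP. At 31 counts the counting error alone is 18% of the value. Its log2 fold change was -0.19 (standard error 0.42, 95% interval -1.08 to 0.71, adjusted p = 0.896 by edgeR) and changed sign when steer 3-8, 10-8 or 3-3 was left out.

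The other genes of smooth muscle and pericytes are listed beside these actins. Of 14 such genes tested, 11 had a positive log2 fold change and none passed the threshold of the study, which 3.9% of all tested rows did, and the median log2 fold change was 0.21 against 0.02 over all tested rows. MYL9, the regulatory myosin light chain of smooth muscle, had 334.4, 455.6 and 421.2 normalized counts in the high-NFMP steers and 323.4, 283.2 and 238.3 in the low-NFMP steers. Its log2 fold change was 0.52 (unadjusted p = 0.0252, adjusted p = 0.354 by edgeR). The summed level of the list was between 17761 and 22120 normalized counts in the high-NFMP steers and between 12872 and 22969 in the low-NFMP steers, so the groups overlapped as they did for ACTA2. SYNPO2 and CALD1, actin-binding proteins and the most counted of the list, made up most of this sum in every library and were at 0.13 and 0.03, and SYNPO2 is also a gene of the skeletal muscle Z-disc. In bulk muscle, fewer cells of a type and less RNA per cell cannot be told apart.

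**Figure D2:**
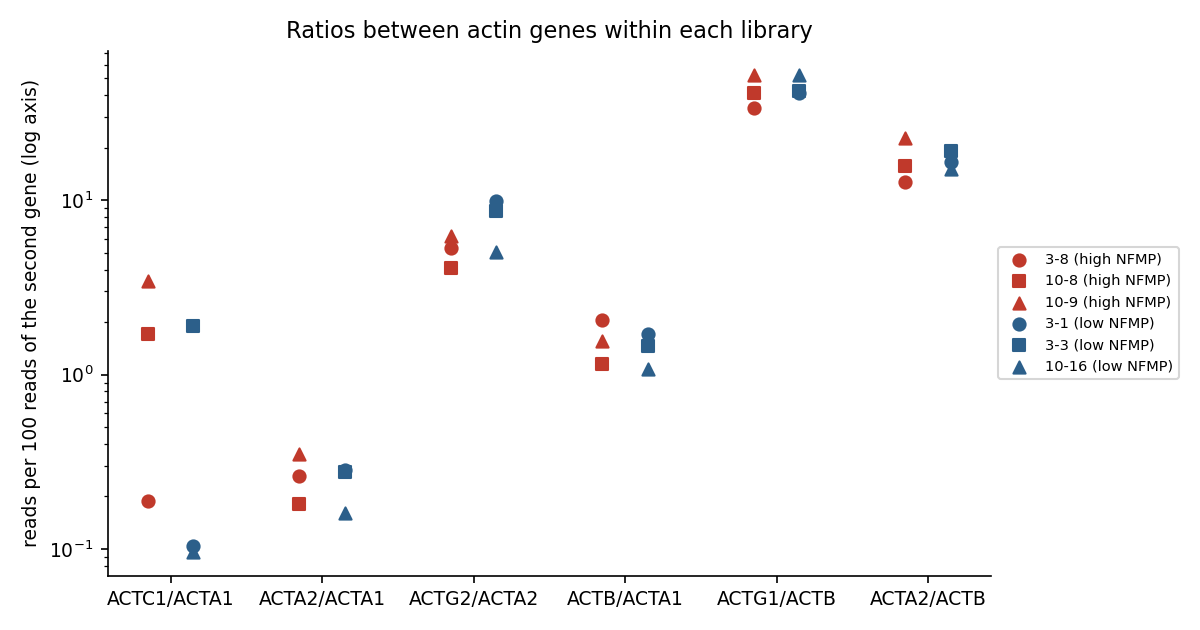
Reads of the first gene per 100 reads of the second gene (vertical log axis) for 6 pairs of actin genes, with 1 point per steer. ACTC1 per 100 ACTA1 reads spreads from 0.0962 to 3.42, whereas the other ratios stay within 2.42-fold, and the groups overlap in each pair.

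Of the cytoskeletal actins, ACTB separated the groups. It had 5333, 5158 and 5572 reads in steers 3-8, 10-8 and 10-9, and 4456, 4715 and 4085 reads in steers 3-1, 3-3 and 10-16. In normalized counts this was 5404, 5732 and 5588 against 4264, 4363 and 4124. All 3 high-NFMP steers lay above all 3 low-NFMP steers, and the steers of a group lay close together, with 5575 ± 164 (SD, n = 3) and 4250 ± 120 (SD, n = 3), a coefficient of variation of 2.95% and 2.82%. High against low NFMP, the log2 fold change was 0.39 (standard error 0.17, 95% interval 0.02 to 0.76), or 1.31-fold. With edgeR the unadjusted p was 0.0383 and the adjusted p 0.408. An unadjusted p below 0.05 was reached by 11.5% of all tested rows (5.73% as higher), and groups without overlap were found in 17.1% of them (7.97% as higher), so ACTB was 1 of many such genes, and after adjustment the difference did not pass. The exact two-sided permutation test over steers gave 0.1, the smallest p that 3 against 3 can give.

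The size of the ACTB difference was steady across settings, while its p was not. Its log2 fold change lay between 0.39 and 0.41 when each steer was left out in turn and between 0.32 and 0.40 under the other settings. The unadjusted p was above 0.05 without steer 10-8 (0.0552), 3-1 (0.103), 3-3 (0.0719) or 10-16 (0.0844) by edgeR, at 0.0748 without a filter on low counts, and highest, at 0.122, with age as a term. Within the steers whose label starts with 3 (1 high, 2 low) the log2 difference was 0.33, and within those whose label starts with 10 (2 high, 1 low) it was 0.46. For the other actins, the same differences within number 3 and within number 10 were -0.07 and 0.14 for ACTA1, -1.30 and 4.79 for ACTC1, -0.16 and 0.79 for ACTA2, -0.95 and 0.78 for ACTG2, and 0.02 and 0.28 for ACTG1. The sign thus differed between the numbers for 4 of the 6 actins. The sources used here do not say what this label number stands for. With library totals alone, the log2 fold change was 0.32 at an unadjusted p of 0.0824 by edgeR.

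ACTG1, the other cytoskeletal actin, had 1805, 2134 and 2895 reads with high NFMP and 1842, 2008 and 2147 reads with low NFMP. Steer 10-9 had the most and steer 3-8, of the same group, the fewest, so the groups overlapped. After normalization it stood at 2368 ± 537 (SD, n = 3) with high and 1929 ± 212 (SD, n = 3) with low NFMP. This gave a log2 fold change of 0.30 (standard error 0.20, 95% interval -0.13 to 0.72, adjusted p = 0.612 by edgeR). Without steer 3-8 it was 0.45 (unadjusted p = 0.0306 by edgeR), without steer 10-9 it was 0.14 (unadjusted p = 0.497), and with the label number as a term it was 0.15. The number of ACTG1 reads per 100 reads of ACTB was 33.9, 41.4 and 52.0 in the high-NFMP steers and 41.3, 42.6 and 52.6 in the low-NFMP steers. The log2 ratio of ACTG1 to ACTB differed by -0.12 between the groups (exact permutation p = 0.5).

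Across the 6 ratios between actin genes, none separated the groups. The exact two-sided permutation p lay between 0.3 and 1, and between 0.84 and 1 after Benjamini-Hochberg adjustment over the 6 ratios. ACTB per 100 reads of ACTA1 was 2.07, 1.16 and 1.55 in the high-NFMP steers and 1.71, 1.45 and 1.07 in the low-NFMP steers, so the separation seen in ACTB alone was not seen relative to ACTA1. Over the 6 libraries, normalized counts of ACTA1 ranged 1.99-fold and those of ACTB 1.39-fold, so ACTA1 is the less steady part of this ratio. ACTG2 per 100 reads of ACTA2 was 5.31, 4.06 and 6.25 against 9.85, 8.69 and 5.06.

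ACTB is made in nearly every cell type, so markers of other cells are given beside it. The summed level of the 8 fibroblast genes was between 13358 and 17419 normalized counts in the high-NFMP steers and between 10310 and 13746 in the low-NFMP steers. That of the 8 endothelial genes was between 1664 and 2278 against 1584 and 1948. The 10 adipocyte genes summed to between 6364 and 15066 against 6652 and 7928, and the 8 immune genes to between 437.8 and 648.6 against 393.7 and 687.5. All 4 sums overlapped between the groups. For the fibroblast and adipocyte sums, steer 10-9 was the only high-NFMP steer within the low-NFMP range or below it. Among the most counted genes of these lists, the matrix genes DCN and COL1A1 had log2 fold changes of 0.31 and 0.23, the endothelial genes PECAM1 and ERG -0.01 and 0.26, and the immune genes CD163 and PTPRC -0.56 and 0.27, and none of these 6 passed the threshold of the study. An unadjusted p below 0.05 by edgeR was reached by 1 of the 8 fibroblast genes, PDGFRA, a growth factor receptor, at -0.51 (adjusted p = 0.408), and by 1 of the 8 endothelial genes, CLDN5, a tight junction protein, at 0.93 (adjusted p = 0.255), both without overlap of the groups. Of all tested rows 11.5% had such a p and 17.1% had no overlap. All 10 adipocyte genes had a positive log2 fold change, with a median of 0.54, and none passed the threshold of the study, while 4 had an unadjusted p below 0.05 by edgeR, all as higher, against 3.9% of all tested rows for the threshold and 5.73% for that p as higher. CIDEC, a lipid droplet protein of fat cells, had 1119, 554.5 and 523.5 normalized counts against 456.4, 385.9 and 342.2. ADIPOQ, which encodes the fat cell hormone adiponectin, had 1608, 961.3 and 1016 against 705.2, 946.6 and 661.3. PLIN4, another lipid droplet protein, was at 0.47 and FABP4, the fatty acid carrier of fat cells, at 0.61 (adjusted p = 0.379 and 0.75 by edgeR). CIDEC, ADIPOQ and CIDEA, a relative of CIDEC at 0.69, separated the groups as ACTB did, 3 of the 10 genes against 17.1% of all tested rows. The part of these cells in the ACTB difference was not tested. The skeletal muscle genes of the tissue label were present in all libraries, with a sum between 1466120 and 1802640, and MB, the oxygen-binding myoglobin, was at 0.11 and TTN at -0.15, and the 5 red blood cell genes summed to at most 67.9. Of the immune genes ITGAM, an integrin of myeloid cells, passed the threshold of the study as lower, at -1.08 (adjusted p = 0.404 by edgeR), and had at most 44 counts. CSF1R and CD14, other myeloid genes of the list, were at 0.73 and 0.57 and did not pass. For these 3 of the 6 immune genes tested the groups did not overlap, against 17.1% of all tested rows.

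How steady ACTB was depends on what is asked of a reference. Set among 23 genes often used as qPCR references, all of them tested, ACTB ranked 10 by the SD of log2 normalized counts over the 6 libraries, at 0.22, where the 23 genes ranged from 0.10 to 0.95 with a median of 0.26. By the mean SD of its log2 ratio to each other candidate it ranked 8, at 0.32. By the size of the log2 fold change between the groups it ranked 21, with only EIF3K at 0.43 and GUSB at -0.59 further from 0. Its small spread within a group thus went with a difference between the groups, and it was the only 1 of the 23 with an unadjusted p below 0.05 by edgeR, against 11.5% of all tested rows. The groups did not overlap for 5 of the 23, which were ACTB, RPLP0, YWHAZ, UXT and GUSB, against 17.1% of all tested rows.

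**Figure D3:**
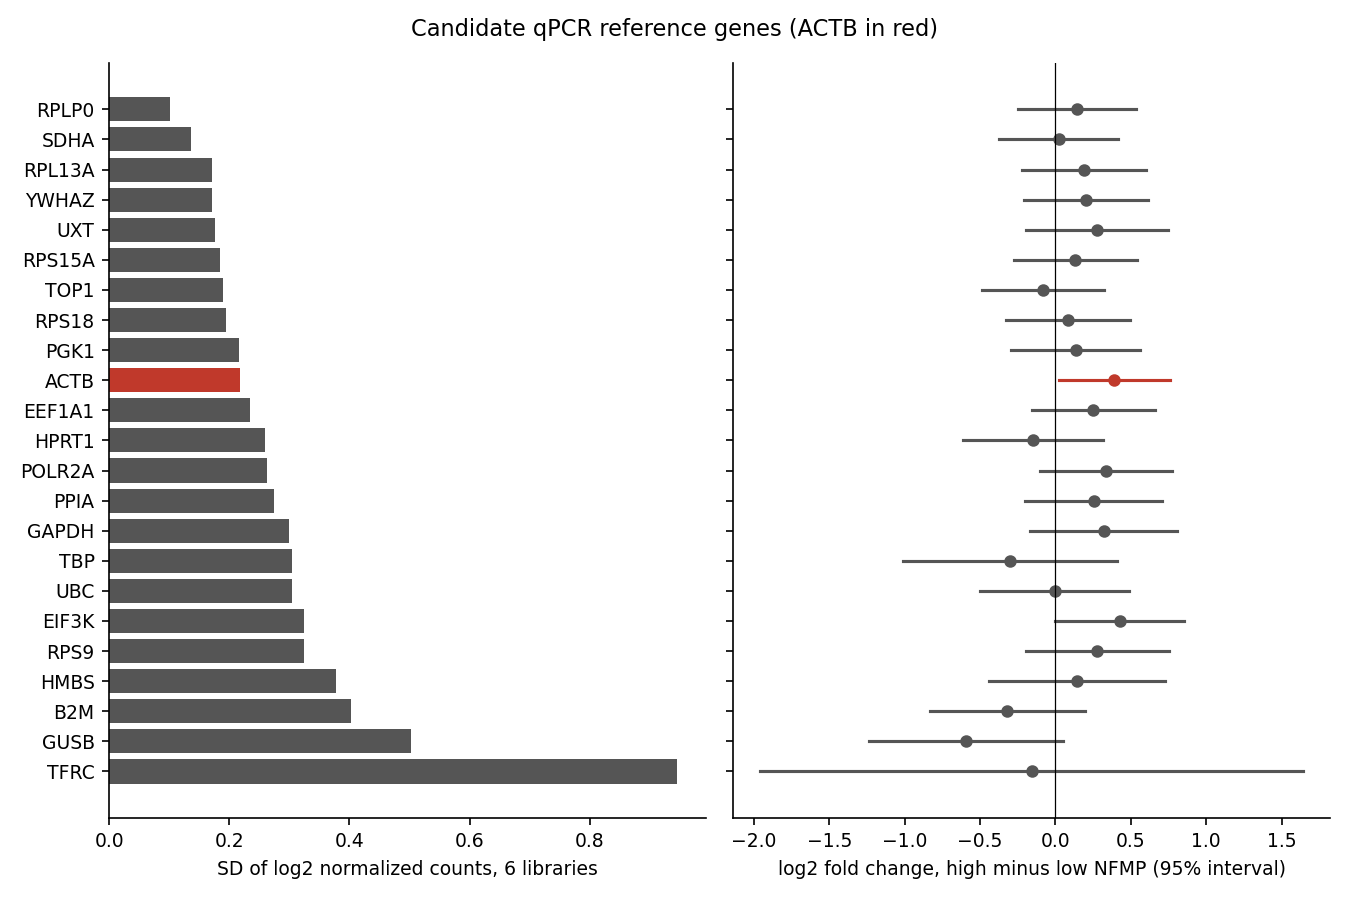
SD of log2 normalized counts over the 6 libraries (left) and log2 fold change of high against low NFMP with its 95% interval (right) for 23 candidate reference genes, in order of the SD. ACTB (red) stands in the middle by SD, at 0.22, and its interval of 0.02 to 0.76 lies above 0.

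The steadiest candidates were RPLP0, a protein of the ribosome stalk, at an SD of 0.10, SDHA, a subunit of mitochondrial complex II, at 0.14, and RPL13A, another ribosomal protein, at 0.17. The log2 fold change of SDHA was 0.02 (95% interval -0.37 to 0.42) and that of RPLP0 was 0.14 (-0.25 to 0.53). The least steady were TFRC, the transferrin receptor, at 0.95, GUSB, a lysosomal enzyme, at 0.50 and B2M, a subunit of MHC class I, at 0.40. GAPDH, a glycolytic enzyme and another common reference, had a log2 fold change of 0.32 (95% interval -0.17 to 0.81). The 95% interval of the difference was within 0.5 log2 units of 0 for 4 of the 23 genes, and ACTB was not among them.

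Set against the geometric mean of the other 22 candidates, ACTB still separated the groups. Its log2 level above that mean was 2.12, 1.92 and 1.93 in steers 3-8, 10-8 and 10-9, and 1.74, 1.73 and 1.53 in steers 3-1, 3-3 and 10-16. The difference was 0.32 on the log2 scale (exact permutation p = 0.1, the smallest possible). This scale was chosen after the counts of ACTB had been seen.

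The genes that were measured by qPCR against ACTB show what such a reference does in these counts. They were picked on these same libraries, so that their direction is not independent evidence. Differences are given here between the group means of log2 normalized counts. Because ACTB was higher in the high-NFMP group by 0.39 on the log2 scale, dividing by ACTB moved every log2 fold change down by that amount. The number of the 10 genes past a fold change of 2 was 10 on the TMM scale and 6 when referred to ACTB. With the geometric mean of all 23 candidates, which differed by 0.08 between the groups, it was 9.

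IRS2, an adaptor of the insulin receptor, went from a log2 fold change of 1.03 on the TMM scale to 0.64 when referred to ACTB, or from 2.04-fold to 1.56-fold. PPARD, a nuclear receptor of fatty acid metabolism, went from 1.34 to 0.94, TGFBI, an extracellular matrix protein, from 1.30 to 0.91, and C1QTNF5, a secreted relative of adiponectin, from 1.28 to 0.89. SIRT4, a mitochondrial sirtuin, was past a fold change of 2 on both scales, at 3.18-fold and 2.43-fold. FNIP2, a folliculin partner, went from 2.07 to 1.68 and SLC28A1, a nucleoside transporter, from 3.50 to 3.11. The 3 lower genes moved the other way in size, with ATRN from -1.09 to -1.49, PECR from -1.10 to -1.49 and ZNF354C from -1.74 to -2.13. On both scales the direction of all 10 genes was the same, and the groups did not overlap for any of them when referred to ACTB, which their choice on these libraries nearly fixed. The qPCR itself was run on other steers as well and was not analysed here.

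**Figure D4:**
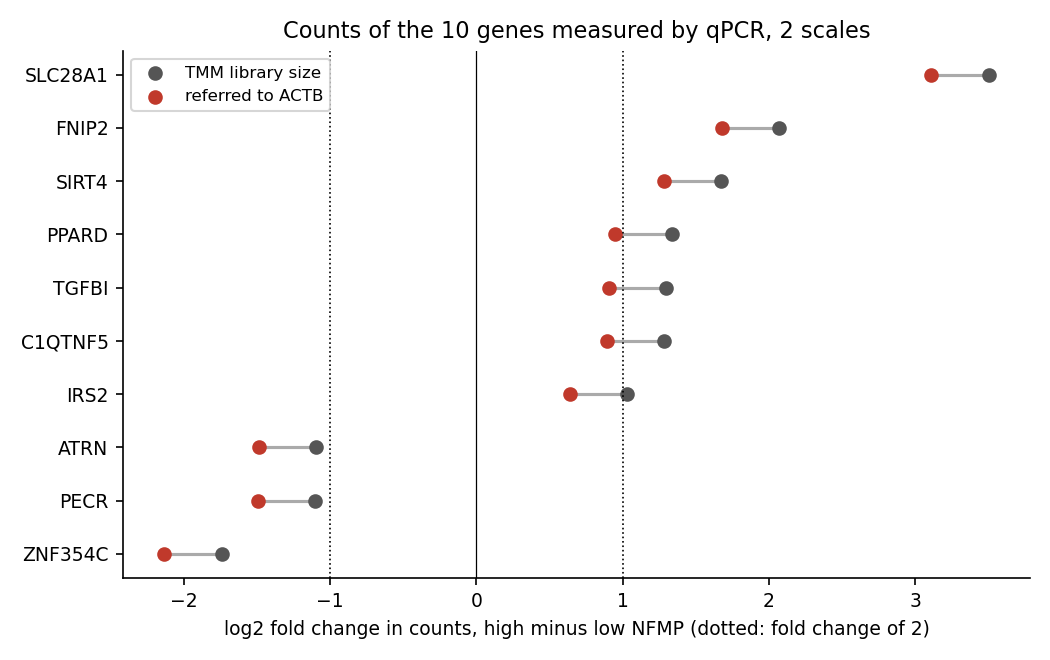
Log2 fold change of high against low NFMP in the sequencing counts of 10 genes, on the TMM scale (gray) and referred to the ACTB count of each library (red), with dotted lines at a fold change of 2. All 10 points shift to the left by 0.39, and 4 of the 7 higher genes cross below the line.

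Few genes for proteins that fold, assemble and cap actin passed a test. Of 73 tested genes in 6 lists of actin machinery, none passed the threshold of the study, against 3.9% of all tested rows. An unadjusted p below 0.05 by edgeR was reached by 2 of them, against 11.5% of all tested rows, and the median log2 fold change was -0.06. These 2 were FLNA, the filamin that crosslinks filaments in non-muscle cells, at a log2 fold change of 0.57 (unadjusted p = 0.0148, adjusted p = 0.296), and VBP1, a prefoldin subunit that carries new actin to its chaperonin, at -0.47 (unadjusted p = 0.0366, adjusted p = 0.405). FLNA had 686.1, 687.9 and 1009 normalized counts in the high-NFMP steers and 511.9, 612.6 and 482.6 in the low-NFMP steers. VBP1 had 219.9, 201.1 and 214.6 against 260.3, 315.5 and 303.9, and neither gene overlapped between the groups. In all, 6 of the 73 genes had no overlap, against 17.1% of all tested rows.

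By role, 11 genes of monomer binding were tested with a median log2 fold change of -0.01, and the most counted were TMSB4X, thymosin beta 4, at -0.01 and CFL2, the muscle cofilin, at -0.06. The 21 genes of nucleation had a median of -0.02. Among them LMOD2 and LMOD3, leiomodins that start thin filaments in muscle, had log2 fold changes of 0.58 and -0.05, and ARPC1B, a subunit of the Arp2/3 complex, 0.35 (adjusted p = 0.485 by edgeR). The 8 capping genes had a median of -0.13, with TMOD1 and TMOD4, which cap the pointed ends of thin filaments, at -0.10 and 0.17. The 7 crosslinking genes had a median of -0.15, with ACTN4, an alpha-actinin of non-muscle cells, at -0.15, and the 16 genes of folding and maturation a median of 0.01, with the chaperonin subunits CCT3 and CCT8 at 0.15 and -0.06.

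No regulator of actin genes passed the threshold, against 3.9% of all tested rows. All 10 tested had a negative log2 fold change, with a median of -0.26, and none had an unadjusted p below 0.05 by edgeR, against 11.5% of all tested rows. SRF, the serum response factor that binds the promoters of actin genes, had 88.2, 218.9 and 36.1 normalized counts in steers 3-8, 10-8 and 10-9, and 220.1, 342.4 and 211.0 in steers 3-1, 3-3 and 10-16. Steer 10-8 lay within the low-NFMP range and the other 2 high-NFMP steers below it. Its log2 fold change was -1.18 (95% interval -2.48 to 0.12, unadjusted p = 0.0693, adjusted p = 0.482 by edgeR). SRF passed the threshold of the study without steer 10-8, where it was at -2.03 on the log2 scale (adjusted p = 0.0523), and also with library totals alone and after quantile normalization with limma. Without steer 10-9 it was at -0.73 (unadjusted p = 0.0828 by edgeR), under a fold change of 2. MKL1, a coactivator of SRF that senses free actin, was at -0.52 (adjusted p = 0.516), and TEAD1 and MEF2C, the most counted of the list, were at -0.23 and -0.03. MYOCD, the smooth muscle coactivator of SRF, was at -0.14.

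**Figure D5:**
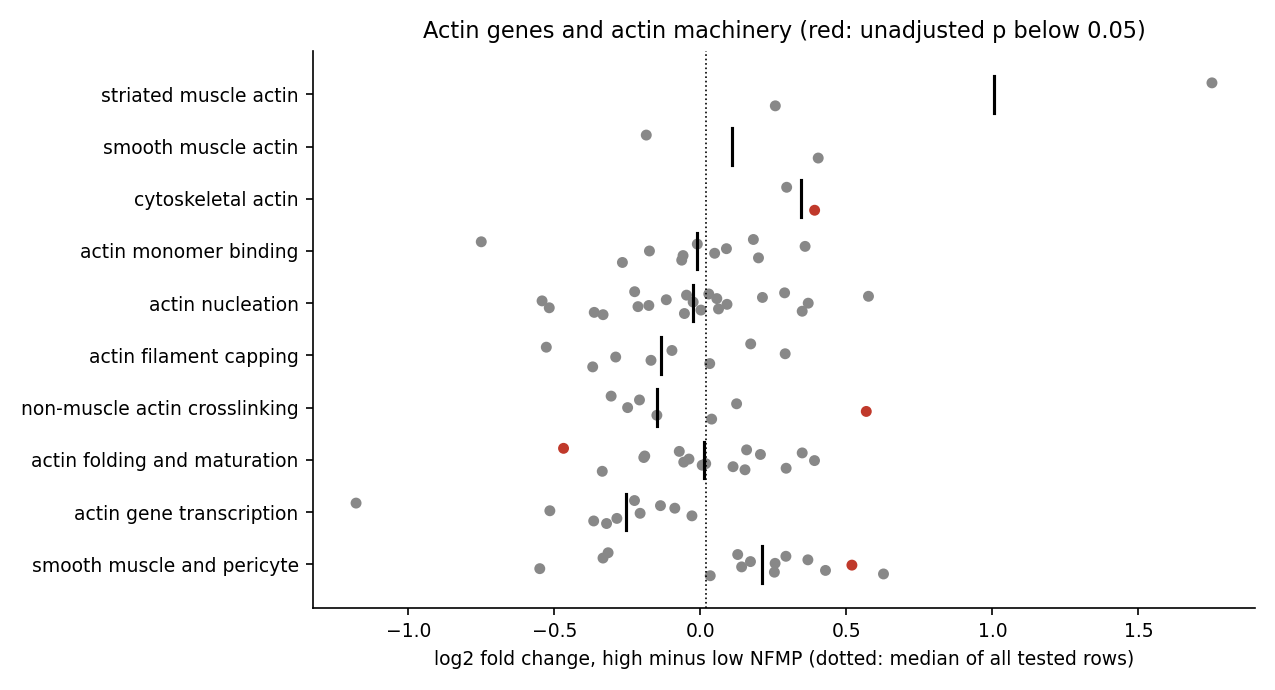
Log2 fold change of high against low NFMP (horizontal axis) for each tested gene of the 3 actin classes, the 6 machinery lists and the smooth muscle and pericyte list, with 1 point per gene, a vertical bar for the median of the list and a dotted line for the median of all tested rows. Points with an unadjusted p below 0.05 are red, and the 10 regulators of actin genes all lie below 0.

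The genes whose pattern over the 6 libraries was nearest to that of each actin were found by the root mean square (RMS) difference of centered log2 normalized counts over 15038 other rows, and they are given as a description. For ACTB they were RTL8C, GON4L and CAVIN1, a caveola protein, at 0.04, 0.06 and 0.06 log2 units, where ACTB itself had an RMS of 0.20 about its mean. CAVIN1 had 5023, 5723 and 5835 normalized counts in the high-NFMP steers and 3973, 4255 and 4000 in the low-NFMP steers. For ACTA1 they were TMEM185B, the cartilage protein gene CILP and SRL, which encodes the sarcoplasmic reticulum protein sarcalumenin, at 0.06, 0.06 and 0.08. For ACTA2 they were RPS20, EIF3F and ARHGDIA, at 0.04, 0.06 and 0.07, and for ACTG1 they were SNX17, SHARPIN and MPRIP, at 0.02, 0.04 and 0.04. For ACTG2 they were FNDC7, LOC100848353 and LOC528802, at 0.13, 0.13 and 0.15. FNDC7 and LOC100848353 had the same normalized counts in steers 10-8, 10-9, 3-1 and 10-16, and whether they hold the same reads was not tested. No gene came near ACTC1, for which the nearest, LOC112448304, differed by 1.05 log2 units and had at most 130.4 normalized counts.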

How the data were processed

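Sequencing libraries of LT muscle from 3 high-NFMP and 3 low-NFMP steers were used, grouped by their labels. A 3′ mRNA kit was used, called SENSE 3′ in the methods and Quant-Seq in the labels. The values that the authors deposited are raw counts of reads, 1 row per gene symbol. The methods name Tophat2 with HTSeq and also Bowtie2 with unique and multiple alignments on UMD3.1, and the submitters' processing notes name Bowtie2 and bedtools. The sources used here do not say which of these gave the counts.

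The fit was made with edgeR 4.0.16 under R 4.3.3. Its standard filter (minimum count 10, minimum total 15) kept 15039 rows, at least 99.85% of the counts of a library. TMM factors (0.9155 to 1.083) set the library sizes, and the quasi-likelihood test compared the groups. Genes were called by the threshold of the methods, an unadjusted p below 0.05 and a fold change above 2, with Benjamini-Hochberg adjustment over all tested rows beside it. At these totals, between 16283873 and 17192750, the counting error was 1.56% of the lowest count of ACTB. Single values such as ratios and shares were tested by exact permutation over steers, with a pseudocount of 0.5 on normalized counts for log2 ratios.

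The members and the gene lists were chosen with earlier results of these data known. Named genes are the 6 actins, listed genes past the threshold or among the 2 most counted of a list, the 10 qPCR genes, the 3 steadiest and 3 least steady reference genes, and the 3 genes most like each actin. One listed gene is not reported here. Others (FLNA, VBP1, MYL9, CIDEC, CIDEA, ADIPOQ, ARPC1B, MYH8, MYH7, SRF, MKL1, MYOCD, EIF3K, PDGFRA, CLDN5, CSF1R, CD14) were chosen with their values in view. The alternatives were DESeq2 1.42.0, limma 3.58.1 on quantile-normalized log2(count + 1), other filters and size factors, summed symbols, terms for age or the label number, and each steer left out. The fits were tested on simulated counts.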

Additional observations from a re-analysis of the deposited data

How the results depend on the processing

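None of the 6 actins passed the p and fold change threshold under any of the settings run. With library totals alone, 315 rows passed as higher and 248 as lower, against 381 and 205 with TMM. Over all tested rows 586 passed it, 969 without a filter on low counts, 364 with at least 10 counts in every library, and between 630 and 744 without 1 steer. The log2 fold change of ACTA1 was -0.0309 after quantile normalization with limma, and between 0.03 and 0.47 without 1 steer. Without 1 steer, ACTG2 ran from -0.646 to 0.0425. In the same fits the log2 ratio differences ran from -0.13 to 0.38 for ACTA2/ACTA1, -0.0487 to 0.371 for ACTB/ACTA1, -0.273 to 0.0357 for ACTG1/ACTB and -0.25 to 0.17 for ACTA2/ACTB. The class share differences ran from -0.53 to 0.065 percentage points (striated), -0.028 to 0.0575 (smooth) and -0.08 to 0.471 (cytoskeletal). The machinery lists had 1 gene past the threshold, SRF, with library totals alone and after quantile normalization with limma, and between 0 and 1 without 1 steer. Referred to ACTB, between 6 and 8 of the 10 qPCR genes were past a fold change of 2 without 1 steer, on the TMM scale 10 were, and with all reference candidates 9 were. Of the recomputed values 18 turned in direction and 6 others moved, all of them within the values above. The causes were not tested.

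Shares per transcript length were not run, because no transcript lengths were used here. No paired analysis was possible because no label pairs single steers across the groups. The first number of the label, which both groups share unevenly, was used as a term instead, and with it ACTB was at 0.391. With 3 steers per group, the 95% interval of ACTB spans 1.02-fold to 1.69-fold, and for ACTG2 the counts limit what can be seen.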
